A study of Mus musculus with 18 samples.

Results

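The Hox genes were followed across 2 white fat depots and the liver of the mouse. They are the 39 genes whose GENCODE M21 symbol is Hox followed by a cluster letter (a to d) and a paralogue number, out of 22298 gene identifiers in the count files. The clusters hold 11 genes (Hoxa, chromosome 6, minus strand), 10 genes (Hoxb, chromosome 11, 96194316 to 96368256), 9 genes (Hoxc, chromosome 15, 102921103 to 103036852) and 9 genes (Hoxd, chromosome 2, 74668310 to 74765142), the last 3 clusters on the plus strand, with positions in mm10. The data are 18 RNA-seq libraries from C57BL/6 mice aged 12 weeks: epididymal white fat (eWAT, a visceral depot), inguinal white fat (iWAT, a subcutaneous depot) and liver, with 3 libraries of each genotype per tissue. The 2 genotypes are Bckdhaf/f, labelled WT, and Bckdhaf/f;RIP-Cre, labelled KO. Every group thus carries the floxed Bckdha gene, which encodes a subunit of the branched-chain keto acid dehydrogenase. RIP-Cre is the usual name for Cre recombinase driven from a rat insulin promoter, whose known sites of activity are the beta cells of the pancreas and certain neurons, not fat or liver. No group has RIP-Cre without the floxed gene. The labels give no sex, although epididymal fat is a male depot. The labels do not say that the 3 libraries of a group come from separate animals, so each p-value measures only the spread between libraries.

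Hox genes encode homeodomain transcription factors that assign identity along the head-to-tail axis of the embryo. Within a cluster the genes lie in the order of their paralogue numbers, and low-numbered (anterior) genes are generally active closer to the head than high-numbered (posterior) genes. Adult connective tissues, fat depots among them, keep a part of this positional pattern, and HOX proteins bind DNA together with the PBX and MEIS cofactors.

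Levels are given in 2 units. CPM values (counts relative to library size) were scaled over all 18 libraries and serve to compare a gene between libraries. The deposited FPKM is also divided by gene length, and serves to compare genes with each other. A gene was called when its Benjamini-Hochberg adjusted p in edgeR's quasi-likelihood test, taken over every gene tested, was below 0.05. Differences are log2 fold changes with their standard error (SE).

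Total counts per library were 16796139 to 24357855 in eWAT, 17959375 to 28039742 in iWAT and 18629304 to 25969215 in liver. Bckdha was detected in every library (37.3 to 465 CPM), with overlapping genotypes in each tissue. The range was 78.6 to 113 CPM in KO against 37.3 to 251 CPM in WT for eWAT, 87.5 to 178 CPM against 89.0 to 169 CPM for iWAT, and 329 to 465 CPM against 373 to 445 CPM for liver. Such gene-level counts are no check of a deletion confined to other tissues. Adipocyte markers (8 genes, Adipoq and Plin1 among them) summed to 6000 to 34338 CPM in 11 of the 12 fat libraries and hepatocyte markers to 174517 to 231349 CPM in the liver libraries. The exception was the eWAT library WT2, with 141 CPM of adipocyte markers, a level near that of liver (62.3 to 127 CPM). The label eWAT may therefore not describe what this library holds, and the name eWAT WT2 is used here as its label only.

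Transcripts of the epididymis, the sperm-maturing duct to which this depot is attached, were abundant in 3 of the 6 eWAT libraries. The 14 epididymis markers, such as Gpx5 and Crisp1, summed to 54259 CPM in WT2, 1102 CPM in KO1 and 1260 CPM in KO3, against 1.35 to 41.0 CPM in WT1, WT3 and KO2. In KO1 and KO3 nearly all of the sum was 1 gene, Crisp1, at 1079 and 1233 CPM. Gpx5 was at 31043 CPM in WT2 but at 9.10 and 14.0 CPM in KO1 and KO3, within its range in WT1, WT3 and KO2 (0 to 21.3 CPM). KO1 and KO3 thus stand apart by Crisp1 and not by the whole list. Smooth muscle markers were also high in WT2, KO1 and KO3: 1271, 2615 and 2506 CPM against 128 to 294 CPM in the other 3. The 4 spermatid markers reached 479 CPM in KO1. The main depot and genotype results that rest on eWAT are therefore given with all 6 libraries and with WT1, WT3 and KO2 alone. With those 3 alone, the KO group of eWAT is a single library, assumed to vary like the others.

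Promoter sequences are shown for members of 1 cluster whose libraries differed in opposite directions between the depots, Hoxa5 (lower in iWAT) against Hoxa9 and Hoxa10 (higher estimates in iWAT), and for Hoxb8, whose eWAT values spanned 2.17 to 130 CPM. Each is the 250 bases upstream of a RefSeq start on GRCm38.p6, read 5′ to 3′ on the gene's strand. The Hoxa5 window is chr6:52204588-52204837 (minus strand), in an intron of the long Hoxa3 gene model. The Hoxa9 window is chr6:52227371-52227620 (minus strand), inside the Hoxa9 span and outside its exons. The Hoxa10 window is chr6:52240855-52241104 (minus strand) and the Hoxb8 window is chr11:96281655-96281904 (plus strand), each directly before the gene. Capitals mark CpG dinucleotides in the first 3 and matches to a Hox-related motif in the last.
Hoxa5: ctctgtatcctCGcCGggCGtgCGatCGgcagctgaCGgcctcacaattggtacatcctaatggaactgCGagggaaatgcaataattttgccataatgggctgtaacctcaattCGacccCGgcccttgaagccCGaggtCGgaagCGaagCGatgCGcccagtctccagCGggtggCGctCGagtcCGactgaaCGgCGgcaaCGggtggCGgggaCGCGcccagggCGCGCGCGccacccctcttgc
Hoxa9: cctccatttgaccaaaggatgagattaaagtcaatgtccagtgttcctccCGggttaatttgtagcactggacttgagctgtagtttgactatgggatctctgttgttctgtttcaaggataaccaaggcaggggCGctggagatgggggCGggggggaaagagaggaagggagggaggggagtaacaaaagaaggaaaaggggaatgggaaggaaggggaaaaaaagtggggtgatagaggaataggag
Hoxa10: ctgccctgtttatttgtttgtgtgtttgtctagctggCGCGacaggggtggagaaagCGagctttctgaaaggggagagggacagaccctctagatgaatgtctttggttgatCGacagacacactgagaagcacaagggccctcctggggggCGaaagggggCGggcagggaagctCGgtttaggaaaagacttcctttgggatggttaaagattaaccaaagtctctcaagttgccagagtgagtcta
Hoxb8: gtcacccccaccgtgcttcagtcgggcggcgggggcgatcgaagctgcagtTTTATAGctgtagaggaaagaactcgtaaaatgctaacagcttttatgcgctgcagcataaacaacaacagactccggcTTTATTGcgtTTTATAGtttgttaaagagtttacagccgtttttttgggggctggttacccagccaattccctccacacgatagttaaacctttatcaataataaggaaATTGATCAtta

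The Hoxa5 window held 28 CpG, the Hoxa9 window 3 and the Hoxa10 window 7. The median was 6 over all 32851 RefSeq windows of this length and 12.5 over the 24 windows of the 22 Hox genes matched, which ranged from 2 to 35. A second RefSeq start of Hoxa10, chr6:52234940-52235189, had 20 CpG, so the count depends on the start taken. The motifs searched, on both strands, were TGATNNAT (a PBX-HOX composite), TAATTA (a homeodomain core) and TTTATNG (a form bound by posterior HOX and CDX proteins), which may overlap each other. They occurred in 7.68%, 4.84% and 9.81% of all windows. None of the 3 was in the Hoxa5, Hoxa9 or Hoxa10 window, while the Hoxb8 window held TTTATNG 3 times and TGATNNAT 1 time. These are matches of letters only. Hoxc10 has no entry in the promoter table.

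Most Hox genes were expressed in fat and few in liver. A mean FPKM of at least 1 was reached by 26 genes in eWAT (22 over WT1, WT3 and KO2), 21 in iWAT and 0 in liver, and by 27 in at least 1 tissue. Every eWAT library had a count for 28 genes, every iWAT library for 28 and every liver library for 9. No count was found in any library of the tissue for 3 genes in eWAT, 8 in iWAT and 12 in liver, and Hoxc12 and Hoxc13 were at 0 in all 18 libraries. The heat map of the members shows a block of expressed genes from the low paralogue numbers up to 10, with little beyond 10 except in 2 eWAT libraries.

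**Figure D1:**
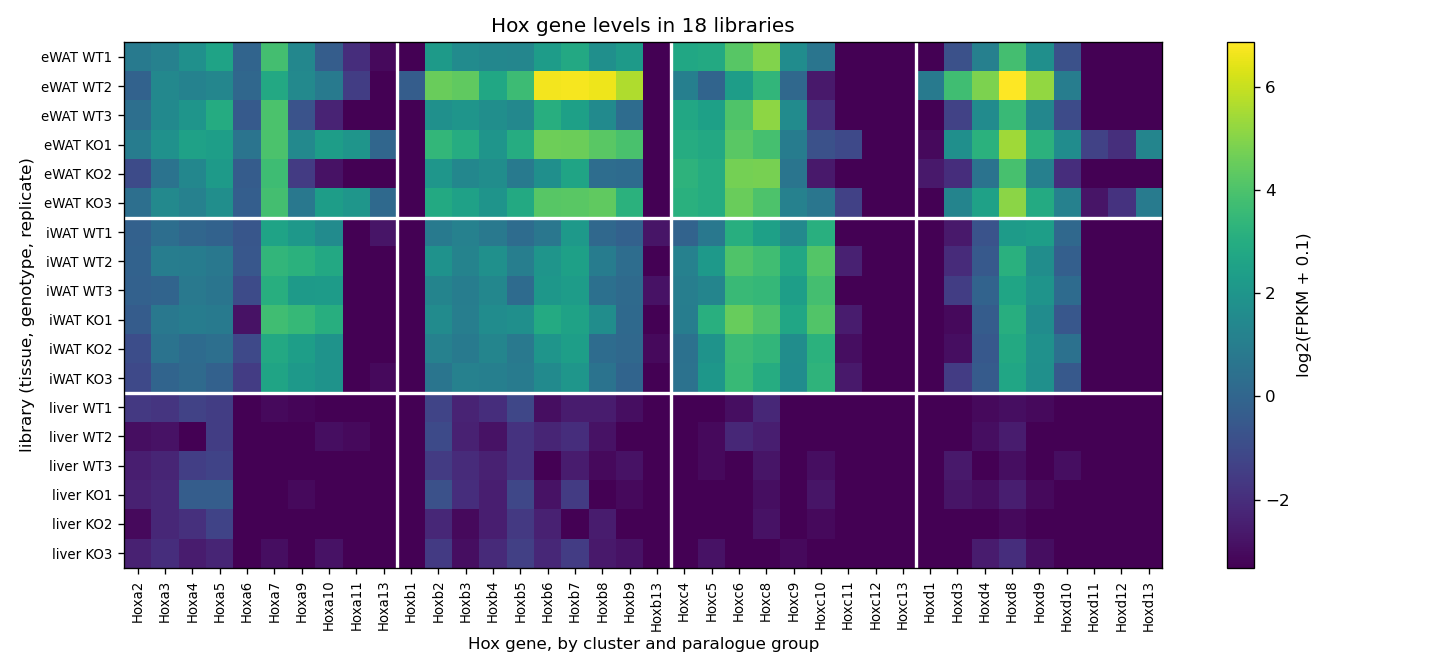
Each cell is log2(FPKM + 0.1) of 1 Hox gene (columns, by cluster and paralogue number) in 1 library (rows, by tissue, genotype and replicate); white lines part the clusters and the tissues. Hoxc10 is bright in all 6 iWAT rows and dim in eWAT. Hoxb1 to Hoxb9 and Hoxd1 to Hoxd9 are brightest in eWAT WT2, whereas Hoxd10 to Hoxd13 are brightest in eWAT KO1 or KO3. The liver rows are dark beyond the low-numbered Hoxa and Hoxb genes.

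The order of the levels differed between the depots. In the 3 eWAT libraries with few epididymal transcripts, the leading genes by mean FPKM (± SD, n = 3) were Hoxc8 at 30.9 ± 3.71, Hoxc6 at 20.6 ± 5.05, Hoxa7 at 14.2 ± 1.40 and Hoxd8 at 13.6 ± 1.62. Hoxc8 did not overlap Hoxc6, and Hoxc6 did not overlap Hoxa7, while the values of Hoxa7 and Hoxd8 overlapped. In iWAT (n = 6) the leading genes were Hoxc6 at 13.9 ± 5.08, Hoxc10 at 12.6 ± 4.05, Hoxc8 at 10.7 ± 3.84, Hoxa7 at 8.53 ± 2.92 and Hoxd8 at 6.94 ± 1.45, each overlapping the next. Hoxa9 at 6.41 ± 2.94 and Hoxa10 at 5.07 ± 2.17 followed. Over all 6 eWAT libraries the first 4 were instead Hoxd8 (38.9 ± 40.1), Hoxb7 (27.7 ± 38.5), Hoxb6 (27.1 ± 37.9) and Hoxb8 (24.0 ± 36.6), with an SD above the mean in each.

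The posterior genes took a larger share of the Hox signal in iWAT. Genes 9 to 13 made up 28.9% to 35.8% of the summed Hox FPKM in the 6 iWAT libraries, against 3.70%, 5.18% and 10.5% in eWAT KO2, WT3 and WT1. In the eWAT libraries with epididymal transcripts the share was 14.5% (WT2) to 16.3% (KO1), still below every iWAT library. Hoxa9, Hoxa10 and Hoxc10 together gave 19.3% to 25.5% of the Hox FPKM in iWAT and 0.247% to 3.35% in the 6 eWAT libraries. The summed Hox FPKM was 138 to 153 in eWAT WT1, WT3 and KO2. In iWAT it was 153 in KO1 and 71.0 to 131 in the other libraries, so only KO1 met that range. The posterior shares of these libraries did not meet. The shares of Hoxb and Hoxd genes together did, at 26.7% to 36.3% in iWAT and 30.2% to 34.5% in those eWAT libraries.

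The test of iWAT against eWAT used 6 libraries of each depot, with genotype as a covariate, and 29 Hox genes passed the filter on low counts. With all 12 libraries 1 of them was called higher in iWAT, where 9.01% of all genes tested were, and 13 were called lower, where 8.88% were. The gene called higher was Hoxc10. Those called lower were Hoxa4, Hoxa5, Hoxa11, Hoxb2, Hoxb3, Hoxb5, Hoxb7, Hoxb8, Hoxb9, Hoxc4, Hoxd3, Hoxd4 and Hoxd8. The median log2 fold change was -1.37 over the 29 Hox genes, also with Hoxa11 set to the limit its 0 counts in iWAT allow, and -0.09 over all genes tested. In bulk tissue, fewer cells expressing a gene and less RNA per cell cannot be told apart.

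Without the 3 eWAT libraries rich in epididymal transcripts, 28 Hox genes were tested and the calls fell to 1 lower, Hoxc4, and 0 higher. The background fell as well, to 0.0944% of genes called higher and 0.145% called lower. An unadjusted edgeR p below 0.05 was found for 17 of the 28 Hox genes and for 3984 of all 15882 genes. DESeq2 on the same libraries, an alternative chosen after seeing the data, called 3 higher (Hoxa9, Hoxa10, Hoxc10), where 10.3% of all genes were, and 7 lower (Hoxa4, Hoxa5, Hoxb3, Hoxc4, Hoxc8, Hoxd4, Hoxd8), where 5.86% were. limma-voom, added likewise, called Hoxa5 and Hoxc4 lower, where 0.157% of all genes were, and none higher, where 0.0315% were. Without those libraries 16 of 28 Hox genes had an unadjusted p below 0.05 in limma-voom, where 3080 of all 15882 genes did. DESeq2 gave 18 of 28, where 4750 of all 15709 genes did.

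The direction of the difference followed position in the Hoxa and Hoxc clusters, except for Hoxa11, which was lower in iWAT with all libraries. In the Hoxb cluster all 8 tested genes had a lower estimate in iWAT, with all libraries and without the 3 eWAT libraries. In the Hoxd cluster all 5 were lower with all libraries, and 3 were lower and 2 higher without the 3. All 21 tested genes of paralogue groups 1 to 8 had a lower estimate in iWAT, with all libraries (median log2 fold change -1.66) and without the 3 (median -0.93). Of groups 9 to 13, 8 were tested with all libraries, 4 higher and 4 lower (median 0.30). Without the 3 libraries 7 were tested, and 6 were higher and 1, Hoxb9, lower (median 1.32). Hoxd9 and Hoxd10 are the genes whose sign turned, from -1.37 and -0.53 to 0.34 and 1.32, and neither was called in either fit (adjusted p 0.132 and 0.591 with all libraries, 0.324 and 0.164 without). These are counts of estimates, most of which did not pass the threshold.

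**Figure D2:**
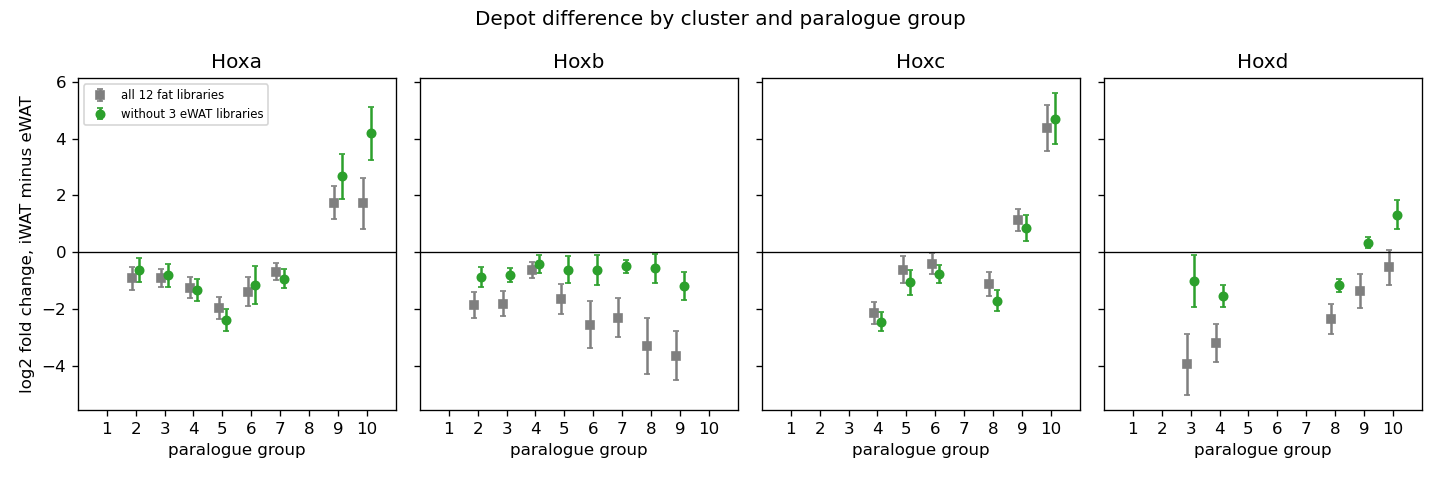
The y axis is the log2 fold change of iWAT minus eWAT and the x axis the paralogue group, with 1 panel per cluster; squares use all 12 fat libraries, circles leave out eWAT WT2, KO1 and KO3, and bars are the SE. Hoxa11 is not drawn because it had 0 counts in iWAT. Points of groups 1 to 8 lie below 0 in every panel, and those of Hoxa9, Hoxa10, Hoxc9 and Hoxc10 lie above 0 with both sets of libraries.

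Among the posterior genes, Hoxc10, a marker of hindlimb and lumbar identity in the embryo and of subcutaneous fat in the adult, had the largest fold of those higher in iWAT. It lay at chromosome 15, 102966796 to 102971893. Its CPM in eWAT was 2.15 in WT1, 0.0843 in WT2, 0.287 in WT3, 0.540 in KO1, 0.0774 in KO2 and 1.85 in KO3. In iWAT the lowest value was 11.6, the median 16.8 and the highest 27.5. No eWAT library reached the iWAT range. The log2 fold change was 4.37 ± 0.81 (a 20.7-fold difference, adjusted p 0.00958), and without the 3 libraries 4.70 ± 0.90 (adjusted p 0.0749). The call held in 23 of 25 alternatives, with an adjusted p from 7.42e-09 to 0.105.

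Hoxa9 and Hoxa10, neighbours in the Hoxa cluster, differed in the same direction. Hoxa9 was at 3.60, 4.38, 1.56, 3.88, 0.271 and 3.28 CPM in eWAT (WT1 to WT3, then KO1 to KO3) and at 5.78 (lowest), 7.71 (median) and 17.1 (highest) in iWAT. The depots did not overlap, but the log2 fold change of 1.75 ± 0.57 was not called (adjusted p 0.0556; 2.68 ± 0.80 and 0.112 without the 3 libraries). The effective gene length that Hoxa9's counts and FPKM imply differed up to 1.76 times between libraries, so its FPKM and CPM do not keep the same ratio. Hoxa10 was at 1.26, 2.19, 0.246, 6.16, 0.0387 and 6.79 CPM in eWAT and at 4.61, 6.5 and 13 (lowest, median, highest) in iWAT. The overlap of Hoxa10 came from KO1 and KO3 alone, and its log2 fold change was 1.73 ± 0.90 with them (adjusted p 0.196) and 4.19 ± 0.94 without the 3 libraries (adjusted p 0.0843).

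Hoxc9, next to Hoxc10 on the chromosome, overlapped between depots. It was at 5.53, 1.64, 6.61, 2.58, 2.44 and 3.28 CPM in eWAT and at 4.61, 7.17 and 13.5 CPM in iWAT. Its log2 fold change was 1.12 ± 0.39 (adjusted p 0.0677; 0.86 ± 0.46 and 0.272 without the 3 libraries). Hoxd9 overlapped between depots with all libraries and also without the 3. It was at 5.46, 5.21 and 3.14 CPM in eWAT WT1, WT3 and KO2 and at 4.53 to 7.96 CPM in iWAT. Hoxd10 was at 0.668, 0.698 and 0.194 CPM in those eWAT libraries and 0.764 to 1.58 CPM in iWAT, without overlap.

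**Figure D3:**
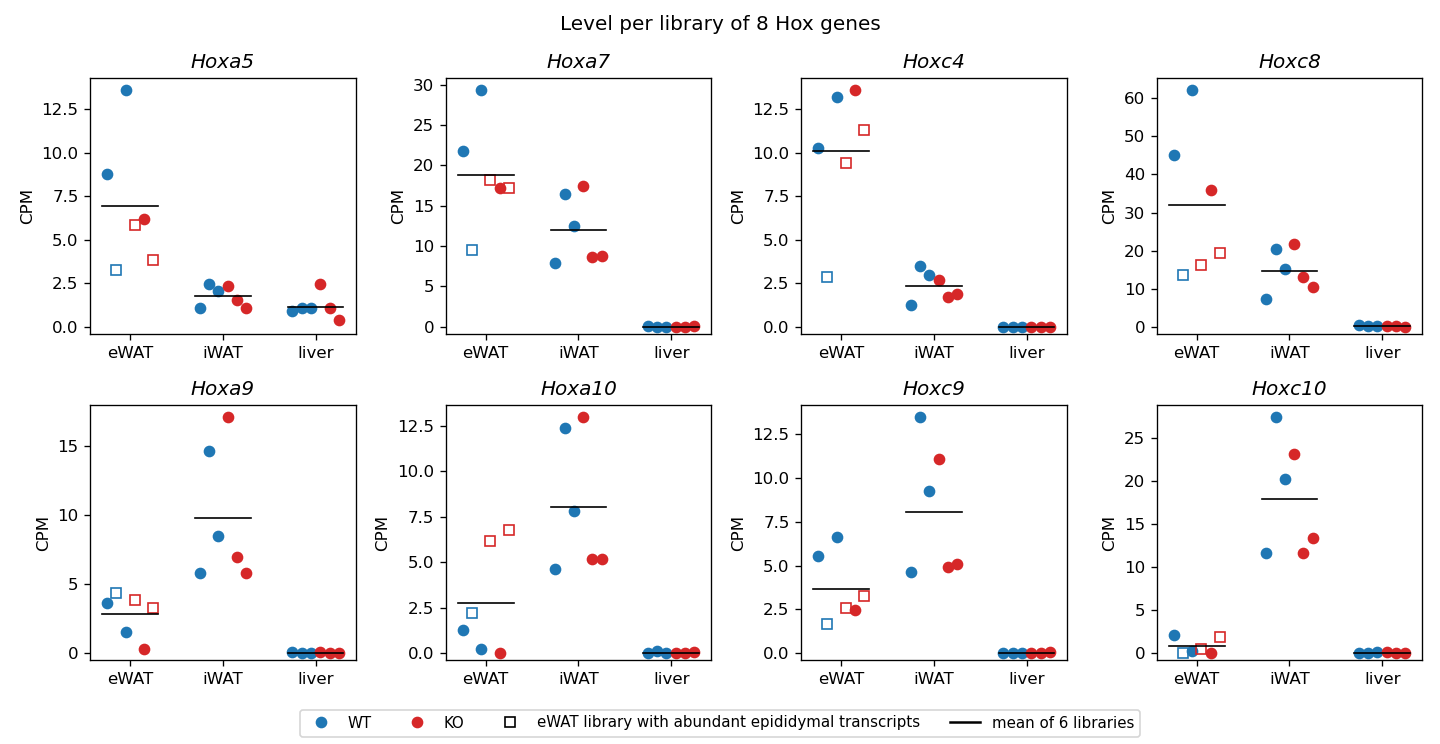
Each panel shows 1 gene, with CPM on a linear y axis and 1 point per library in eWAT, iWAT and liver; blue is WT, red is KO, open squares are eWAT WT2, KO1 and KO3, and the bar is the mean of 6 libraries. Hoxc10 lies between 11.6 and 27.5 CPM in iWAT and at 2.15 CPM or less in eWAT, whereas Hoxa5 and Hoxc4 are lower in iWAT.

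Hoxa5, a central gene active in the thorax and known as a regulator of adipocyte development, went the other way. Its CPM in eWAT was 8.76, 3.29, 13.6, 5.84, 6.19 and 3.81 (WT1 to WT3, then KO1 to KO3), and in iWAT 1.07 (lowest), 1.80 (median) and 2.43 (highest). The depots did not overlap, and the 3 libraries rich in epididymal transcripts held the lowest eWAT values. The log2 fold change was -1.98 ± 0.39 (adjusted p 0.0110), and without those 3 libraries -2.40 ± 0.38 (adjusted p 0.0519).

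Hoxc4 was the member called in all 25 alternatives, with an adjusted p from 4.23e-08 to 0.0485. It was at 10.3, 2.87, 13.2, 9.40, 13.6 and 11.3 CPM in eWAT and at 1.25, 2.29 and 3.51 CPM (lowest, median, highest) in iWAT. The depots overlapped through eWAT WT2 alone. The log2 fold change was -2.15 ± 0.40 (adjusted p 0.00958), and -2.45 ± 0.34 (adjusted p 0.0485) without the 3 libraries. Hoxc8, the gene of highest FPKM in eWAT WT1, WT3 and KO2, was at 45.0, 62.1 and 36.0 CPM there and at 13.7, 16.1 and 19.3 CPM in WT2, KO1 and KO3. In iWAT it was at 7.38, 14.2 and 21.7 CPM (lowest, median, highest). It therefore overlapped iWAT only in the libraries rich in epididymal transcripts, and its log2 fold change was -1.11 ± 0.42 (adjusted p 0.0815) with them and -1.72 ± 0.37 (adjusted p 0.0820) without.

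Of the other central and anterior members of the Hoxa and Hoxc clusters described here, Hoxa4 was called and 5 were not. Hoxa7, a trunk gene, was at 21.8, 9.48, 29.3, 18.2, 17.2 and 17.2 CPM in eWAT and at 7.96, 10.6 and 17.5 CPM in iWAT (log2 fold change -0.69 ± 0.30, adjusted p 0.124; -0.93 and 0.141 without the 3 libraries). Hoxc6 was at 5.56 to 29.5 CPM in eWAT and 9.49 to 25.8 CPM in iWAT (-0.40 ± 0.37, adjusted p 0.474; -0.78 and 0.177 without), and Hoxc5 at 1.81 to 16.6 and 3.36 to 17.6 CPM (-0.62 ± 0.48, adjusted p 0.395; -1.07 and 0.174 without). Hoxa4 was called with all libraries, at 4.16, 2.49, 5.91, 5.27, 2.83 and 2.23 CPM in eWAT and 1.05 to 2.43 CPM in iWAT (-1.25 ± 0.37, adjusted p 0.0376; 0.108 without the 3 libraries). The anterior genes Hoxa2 (-0.92 ± 0.40, adjusted p 0.128; -0.63 and 0.386 without) and Hoxa3 (-0.92 ± 0.31, adjusted p 0.0623; -0.81 and 0.246 without) were not called.

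Separation of libraries gave a similar list. Against all 6 eWAT libraries, Hoxa9 and Hoxc10 were higher in every iWAT library, as were 2.61% of all genes tested, and Hoxa5, Hoxd4 and Hoxd8 were lower in every one, as were 1.86%. Against WT1, WT3 and KO2 alone, 4 were higher in every iWAT library (Hoxa9, Hoxa10, Hoxc10, Hoxd10; 5.97% of all genes) and 8 lower (among them Hoxa4, Hoxa5, Hoxa6, Hoxc4, Hoxc8, Hoxd4, Hoxd8; 5.22% of all genes).

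The Hoxb and Hoxd genes took a larger share in the 3 eWAT libraries with a high epididymis marker sum. Together they gave 93.9% of the Hox FPKM in eWAT WT2, 65.2% in KO1 and 60.2% in KO3, against 30.2% to 34.5% in the other 3 eWAT libraries and 26.7% to 36.3% in iWAT. The summed Hox FPKM was 658 in WT2, 281 in KO1 and 241 in KO3. The part of epididymal tissue in this was not tested, since no library of epididymis alone is among the samples.

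Hoxb8, a trunk gene, was at 130 CPM in WT2, 20.9 in KO1 and 22.2 in KO3, against 4.27, 6.11 and 2.17 in WT1, WT3 and KO2 and 1.75 to 5.30 in iWAT. Its log2 fold change of iWAT against eWAT was -3.32 ± 0.98 (adjusted p 0.0392) with all libraries and -0.57 ± 0.52 (adjusted p 0.499) without the 3. Hoxb9 went from -3.65 ± 0.87 (adjusted p 0.0193) to -1.19 ± 0.49 (adjusted p 0.176), with eWAT at 9.25, 91.8, 2.5, 23.7, 1.97 and 15 CPM and iWAT at 1.33 to 2.40 CPM. Hoxb7 went from -2.31 ± 0.69 (adjusted p 0.0412) to -0.50 ± 0.23 (adjusted p 0.214), with 95.8, 18.4 and 15.8 CPM in WT2, KO1 and KO3 against 5.57 to 7.17 CPM in the other eWAT libraries. Hoxb6 did likewise, at 113, 22.4 and 18.5 CPM against 3.56 to 11.3 CPM, and was not called (adjusted p 0.0527 and 0.469).

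Of the Hoxb genes of groups 2 to 5, Hoxb2 and Hoxb5 were also higher in WT2, KO1 and KO3 than in the other eWAT libraries. Hoxb2 was at 26.7, 10.4 and 7.66 CPM in WT2, KO1 and KO3 and at 5.90, 5.25 and 4.57 CPM in WT1, WT3 and KO2. Hoxb3 was at 44.8, 14.9 and 11.1 CPM against 7.05, 11.6 and 5.69 CPM, so KO3 lay just below WT3. Hoxb5 was at 17, 8.88 and 8.87 CPM against 3.60, 4.76 and 2.36 CPM. Hoxb4 was high in WT2 alone, at 12.2 CPM, and KO1 (5.91 CPM) and KO3 (6.30 CPM) lay within the range of WT1, WT3 and KO2 (5.12 to 7.76 CPM). edgeR called none of these 4 without the 3 libraries, with log2 fold changes from -0.88 to -0.42. DESeq2 on the same libraries called Hoxb3 lower in iWAT.

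In the Hoxd cluster, Hoxd8 was at 189 CPM in WT2, 58.0 in KO1 and 48.9 in KO3, and at 26.7, 28.5 and 24.9 in WT1, WT3 and KO2. Those last 3 were still above every iWAT library (8.24 to 16.9 CPM), and the log2 fold change was -2.36 ± 0.52 (adjusted p 0.0154) with all libraries and -1.17 ± 0.24 (adjusted p 0.0758) without the 3. Hoxd4 was at 39.6, 9.94 and 7.62 CPM in WT2, KO1 and KO3, at 2.97, 6.07 and 1.97 CPM in WT1, WT3 and KO2, and at 0.937 to 1.61 CPM in iWAT (-3.20 ± 0.67, adjusted p 0.0129, and -1.55 ± 0.39, adjusted p 0.0919). Hoxd3 was at 17, 3.95 and 3.51 CPM against 0.743, 0.821 and 0.310 CPM, and its call was lost without the 3 libraries (adjusted p 0.0304 and 0.491). Hoxd9 was at 56.5 CPM in WT2 and 11.9 and 10.3 CPM in KO1 and KO3.

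The ends of the clusters divided the 3 libraries from each other. Hoxb1 (1.05 CPM) and Hoxd1 (2.23 CPM), the most anterior genes of their clusters, were seen in WT2 and were at 0 to 0.0774 CPM in the other eWAT libraries and at 0 in iWAT and liver. Hoxa11, a gene of the limb and the reproductive ducts, was at 5.37 CPM in KO1 and 5.92 CPM in KO3, at 0.421 CPM in WT2 and 0.260 CPM in WT1, and at 0 in WT3, KO2 and all 6 iWAT libraries. Its call with all libraries (adjusted p 0.0463) thus rested on KO1 and KO3, it did not pass the filter without the 3 libraries, and no fold is given. Hoxa13, a gene of the hindmost body, was at 1.3 and 1.58 CPM in KO1 and KO3 and at 0.0371 CPM or less in the other eWAT libraries, WT2 included. Hoxd13 was at 3.53 and 2.91 CPM in KO1 and KO3 and at 0 in the other 16 libraries. Hoxd11 and Hoxd12 also had counts in KO1 and KO3 only, at 0.302 CPM or less.

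**Figure D4:**
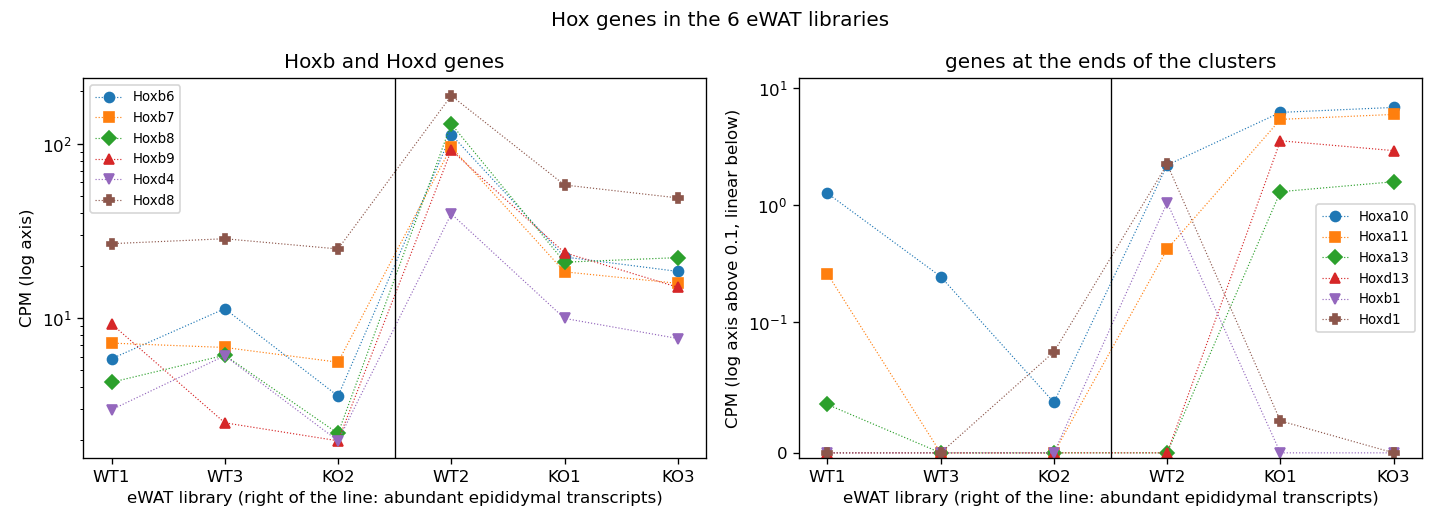
Both panels give CPM per eWAT library, with WT2, KO1 and KO3 right of the line; the left y axis is logarithmic and the right one is logarithmic above 0.1 and linear below. On the left, Hoxb6 to Hoxb9, Hoxd4 and Hoxd8 are highest in WT2 (Hoxd8 at 189 CPM); on the right, Hoxa11, Hoxa13 and Hoxd13 are high in KO1 and KO3, and Hoxb1 and Hoxd1 in WT2. Dotted lines only join the points of a gene.

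Hoxc4 to Hoxc10 did not share the pattern of the Hoxb and Hoxd genes. Hoxc11 had counts in KO1 (0.442 CPM) and KO3 (0.377 CPM) and in no other eWAT library. In WT2 the 4 central Hoxc genes were at the lowest level of the 6 eWAT libraries: Hoxc4 at 2.87 CPM, Hoxc5 at 1.81 CPM, Hoxc6 at 5.56 CPM and Hoxc8 at 13.7 CPM. Fibroblast and adipose progenitor markers (5 genes, Pdgfra among them) summed to 499 CPM in WT2 and 1048 to 1861 CPM in the other 5 eWAT libraries, and adipocyte markers were low there as given above. The part of these cell types in the Hoxc values was not tested.

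Other markers also differed between the depots. B cell markers (4 genes) summed to 254 to 898 CPM in 5 iWAT libraries, 2.91 CPM in iWAT WT2 and 1.39 to 4.6 CPM in eWAT. In that iWAT library Hoxc10 was at 27.5 CPM, the highest of the depot, and Hoxa9 and Hoxa10 were at 14.6 and 12.4 CPM, below KO1 alone. Mesothelial markers (5 genes), which mark the lining of visceral organs, summed to 17.5 to 254 CPM in eWAT and 1.83 to 10.2 CPM in iWAT. Their part in the depot difference was not tested. Within iWAT, WT2 and KO1 had the highest adipocyte sums (19428 and 18601 CPM) and the highest Hoxc10, Hoxa9 and Hoxa10 values.

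The genes that work with or on Hox genes were called between depots in both directions, against 9.01% of all genes called higher in iWAT and 8.88% lower. Of 9 cofactors tested, 0 were called higher and 2 lower in iWAT, among them Meis1 (7.5 to 19.5 CPM in eWAT and 3.16 to 7.56 CPM in iWAT, -1.63 ± 0.29, adjusted p 0.00850). Of 24 chromatin regulators of the Polycomb and Trithorax groups and Ctcf, 3 were called higher and 0 lower: Ezh2 (1.74 ± 0.49, adjusted p 0.0349), Cbx2 (0.78 ± 0.22, adjusted p 0.0334) and Phc2 (0.34 ± 0.09, adjusted p 0.0291). Ezh2, the Polycomb methyltransferase, ranged from 3.48 to 33.3 CPM in iWAT, lowest in WT2, the library with few B cell transcripts, so its value moved with those markers. Of 7 upstream factors 4 were tested, and Gdf11, a growth factor that sets the trunk-to-tail transition, was called higher (1.05 to 3.71 CPM in eWAT and 6.54 to 19.2 CPM in iWAT, 2.15 ± 0.35, adjusted p 0.00740). Its iWAT values moved with the B cell markers too, at 16.1, 17.4 and 19.2 CPM in the 3 libraries with 769 to 898 CPM of those markers, 10.3 and 6.90 CPM in those with 369 and 254 CPM, and 6.54 CPM in WT2. Their part in these results was not tested. The retinoic acid receptors make up the other 3. None of these 5 named genes was called without the 3 eWAT libraries, where their estimates kept their sign (Meis1 -1.60, Ezh2 2.09, Cbx2 0.99, Phc2 0.32, Gdf11 1.82). The median log2 fold change was -0.19 for the cofactors (0.16 without the 3 libraries) and 0.21 for the chromatin regulators (0.27).

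Liver held low levels of Hox RNA. The summed Hox FPKM was 1.34 to 3.35 per library, of which the anterior genes (groups 1 to 3) gave 23.9% to 38.7%, the central genes (4 to 8) 55.9% to 74.6% and the posterior genes (9 to 13) 1.49% to 6.28%. By mean FPKM (± SD, n = 6) the order was Hoxa5 at 0.327 ± 0.202, Hoxb2 at 0.297 ± 0.128, Hoxb5 at 0.260 ± 0.0787 and Hoxa4 at 0.253 ± 0.251, neighbours that all overlapped. Of the 26 Hox genes tested for liver against iWAT, 24 were called lower and 0 higher, where 45.8% of all genes tested were lower and 31.7% higher. The 2 not called were Hoxa5 (-0.59 ± 0.42, adjusted p 0.209) and Hoxa4 (-1.14 ± 0.64, adjusted p 0.121). Only 3 Hox genes passed the filter within liver, so most genes in the tests of liver against fat entered through their counts in fat. For those genes a lower call was favoured in advance. With no filter on low counts, 25 of 32 Hox genes were called lower than iWAT and 0 higher, where 7196 of all 18521 genes were lower. Against eWAT all 29 tested were called lower, where 40.4% of all genes were. That comparison uses the same liver libraries, and without the 3 eWAT libraries it called 27 of 28, where 36.2% of all genes were lower. Median log2 fold changes were -4.40 and -6.25 for the Hox genes (-4.40 and -6.21 with genes at 0 in liver set to their limit) and -0.34 and -0.29 for all genes tested.

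Hoxa5 in liver was at 0.370 (lowest), 1.07 (median) and 2.47 CPM (highest), overlapping iWAT (1.07 to 2.43 CPM). This overlap depends on the scaling: in FPKM liver was at 0.11 to 0.71 and iWAT at 0.80 to 1.73, without overlap. limma on filtered log2(FPKM + 1) called all 21 Hox genes it tested lower in liver, Hoxa4 and Hoxa5 among them, where 10268 of all 13231 genes were. Hoxb5 was at 0.632, 0.853 and 1.24 CPM against 1.52 to 4.48 CPM in iWAT, without overlap, and was called lower (-1.41 ± 0.34, adjusted p 0.00200). Hoxb2 was at 0.355 to 1.42 CPM against 1.71 to 4.80 CPM (-1.62 ± 0.38, adjusted p 0.00176). Hoxa7, by contrast, had 2 counts over the 6 liver libraries against 2230 in iWAT, and Hoxc10 had 4 against 3312. Hoxc4 had 0 counts in liver, which puts iWAT at least 53.0-fold higher and eWAT WT1, WT3 and KO2 at least 280-fold higher, taking a floor of 3 counts over the 6 liver libraries (counting error only).

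In the Hoxa and Hoxb clusters the liver level relative to iWAT divided by position. The percentages given here use scaled CPM and depend on that scaling. The tested Hoxa genes of groups 1 to 5 were at 23.9% to 66.3% of the iWAT mean in CPM and Hoxa7, Hoxa9 and Hoxa10 at 0.244% to 0.417%, and Hoxb2 to Hoxb5 were at 9.51% to 36.9% against 3.69% to 6.77% for Hoxb6 to Hoxb9. Hoxc4 (0%), Hoxc5 (0.727%) and Hoxd4 (6.66%) lay within or below the range of the later groups, so no such division held in the other clusters. For the 12 tested genes of groups 1 to 5, the liver mean was 0% to 66.3% of the iWAT mean, with a median of 28.2%, and for the 14 of groups 6 to 13 it was 0.191% to 6.77%, with a median of 1.04%. The summed counts over the 6 liver libraries were 406 and 97. Clusters differed too: the median was 28.9% for Hoxa, 8.14% for Hoxb, 0.429% for Hoxc and 1.60% for Hoxd.

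**Figure D5:**
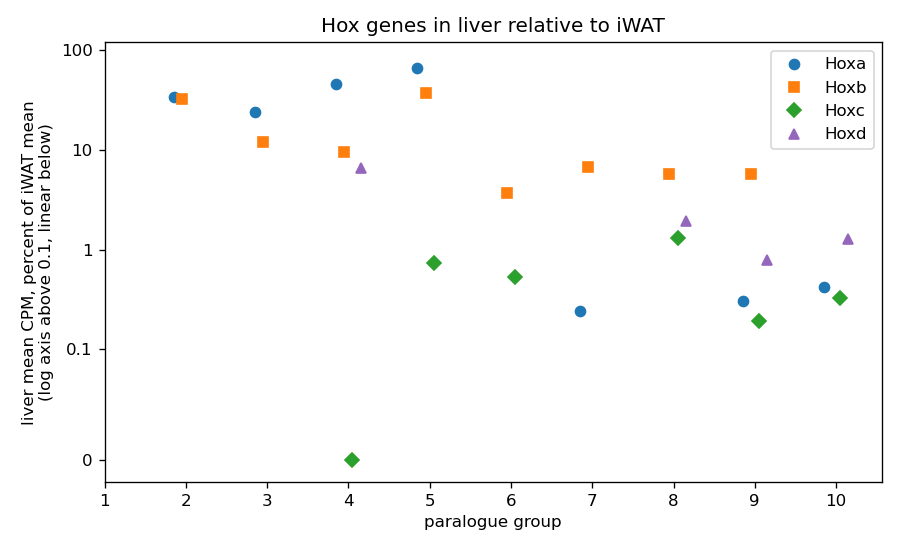
The y axis is a gene's mean CPM over 6 liver libraries as a percent of its mean over 6 iWAT libraries (logarithmic above 0.1, linear below) and the x axis its paralogue group; each point is 1 gene that passed the filter, with shape and colour for the cluster. Hoxa2 to Hoxa5 lie between 23.9% and 66.3%, and Hoxa7, Hoxa9 and Hoxa10 between 0.244% and 0.417%.

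Liver values were also set beside those of eWAT WT2, since liver held some transcripts of another tissue. The epididymis markers summed to 49.7 CPM on average in liver, 0.0916% of their level in eWAT WT2 (at most 0.126% in a library). The Hox genes closest to that share, named after their values were seen, were Hoxb6, Hoxb8, Hoxb9, Hoxd8 and Hoxd9, which in liver were at 0.146%, 0.121%, 0.114%, 0.125% and 0.0796% of their eWAT WT2 level. The 15 genes of groups 6 to 13 compared had a median of 0.615%, and the faintest in liver, Hoxd10 and Hoxc9 (0.0150 and 0.0154 CPM), were at 0.615% and 0.938%. Hoxb2 and Hoxb5 were at 3.46% and 5.46%, and Hoxa5 at 35.4%. In liver KO2 the epididymis markers summed to only 1.35 CPM, against 46.3 to 68.6 CPM in the other liver libraries. In that library Hoxb6, Hoxb8, Hoxb9, Hoxd8 and Hoxd9 were at 0.213, 0.142, 0, 0.0711 and 0 CPM, with at most 3 counts each. Their liver means were 0.165, 0.158, 0.104, 0.235 and 0.0450 CPM. Whether reads of other libraries add to these liver values was not tested.

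Between genotypes no Hox gene was called in any tissue by edgeR. In eWAT 29 were tested and 0 called, where 0% of all genes were, in iWAT 26 and 0, where 0% were, and in liver 3 and 0, where 0.0504% were. The number of Hox genes with an unadjusted edgeR p below 0.05 was 0 in each with these libraries. Of all genes, 843 of 14657 had one in eWAT, 593 of 14226 in iWAT and 720 of 11915 in liver. DESeq2 and limma-voom also called 0 Hox genes. The difference between the genotype effects of iWAT and eWAT was called for 0 of 29, where 0% of all genes were. An unadjusted edgeR p below 0.05 was found for 0 of the 29 and for 739 of all 15455 genes. With eWAT WT1, WT3 and KO2 alone, edgeR called 0 of 28 Hox genes between genotypes in eWAT, where 0.170% of all genes were, and 0 of 28 for the difference between depots, where 0.00630% were. The median log2 fold change of the Hox genes between genotypes in eWAT was then -0.83, against -0.52 with all libraries. Over all genes tested the medians were -0.06 and -0.02. Hoxa9, named after its value was seen, had a log2 fold change of -3.22 ± 1.27 without the 3 libraries. The values without those libraries rest on 1 KO library.

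In eWAT the lowest p belonged to Hoxa11, with means (± SD, n = 3) of 0.227 ± 0.213 CPM for WT and 3.77 ± 3.27 CPM for KO and a log2 fold change of 3.99 ± 2.08 (edgeR adjusted p 0.706). The counts came from KO1 and KO3 as described. Hoxb3 averaged 21.1 ± 20.6 CPM among WT libraries and 10.6 ± 4.61 CPM among KO libraries, and Hoxd9 at 22.4 ± 29.6 and 8.44 ± 4.67 CPM. Leaving out WT2 turned the sign of both, from -1.05 to 0.20 for Hoxb3 and from -1.46 to 0.68 for Hoxd9. Epididymal transcripts were abundant in 1 WT and 2 KO libraries (in the KO libraries mainly Crisp1). In this depot their effect and that of genotype therefore cannot be told apart at these genes.

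In iWAT the estimates ranged from -0.78 to 0.84. Hoxa2, a hindbrain gene, was at 1.01, 1.20 and 1.08 CPM in WT and 0.866, 0.516 and 0.478 CPM in KO (-0.78 ± 0.43, edgeR adjusted p of 1). Hoxd9 was at 7.96, 5.49 and 6.02 CPM in WT and 4.53, 4.90 and 5.22 CPM in KO (-0.39 ± 0.23), and Hoxc5 at 6.42 ± 3.74 and 11.2 ± 5.62 CPM (0.84 ± 0.56). Libraries did not overlap for 3 genes, all lower in KO (Hoxa2, Hoxb3 and Hoxd9), as for 5.70% of all genes tested, and for 0 higher in KO, as for 3.65%. In liver the 3 tested genes were Hoxb2 (-0.37 ± 0.57), Hoxa5 (0.35 ± 0.60) and Hoxb5 (0.16 ± 0.46), with edgeR adjusted p from 0.927 to 0.965. These intervals are wide: for Hoxa5 in liver an approximate 95% interval, taken from the SE alone, ran from -0.83 to 1.52. With 3 libraries a group the true interval is likely wider, so differences in either direction remain possible.

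The gene models of some members overlap. In the annotation 8 pairs of Hox gene spans overlap on the same strand, among 11 genes: Hoxc5 with Hoxc6, Hoxc8, Hoxc9 and Hoxc10, Hoxa3 with Hoxa4, Hoxa5 and Hoxa6, and Hoxd3 with Hoxd4. Exons share bases in 2 of the 8 pairs: 166 bases of Hoxc5 with Hoxc10 (8.70% of Hoxc10's exon bases) and 388 bases of Hoxd3 with Hoxd4 (13.2% of those of Hoxd4). No label states how the authors' counting divided reads in shared bases, so the levels of these 4 genes are uncertain to that extent.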

How the data were processed

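The authors deposited expected counts per library and gene, which are estimates and need not be whole (8.33% lay at least 0.01 from a whole number). The authors also deposited FPKM values, which they made by scaling counts to gene length and library size. The build was mm10, and the tools listed, per the submitters' processing notes, were RSEM, HISAT2, edgeR, DESeq2, fastp (version 0.18.0), StringTie (1.3.1) and Bowtie2 (2.2.8). What each tool did, which annotation was used and whether strand was counted are not stated in what was available here. RNA was enriched on oligo(dT) beads, per the labels' protocols.

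Symbols and coordinates came from GENCODE M21 on the same build, and 43 identifiers had no symbol. Counts were rounded, filtered with filterByExpr (minimum count 10, total 15), scaled with TMM and tested with edgeR 4.0.16 in R 4.3.3 (glmQLFit with robust estimation, glmQLFTest). Genotype was tested within each tissue, and tissues were compared pairwise over 12 libraries with genotype as a covariate. TMM factors over all 18 libraries were 1.04 to 1.67 in eWAT, 1.21 to 1.49 in iWAT and 0.457 to 0.580 in liver. The scripts were tested on simulated data. Alternatives used DESeq2 1.42.0, limma 3.58.1 on voom weights and on log2(FPKM + 1) or log2(FPKM + 0.1), other scalings and filters, and fewer libraries.

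Named genes are Hox genes with a mean FPKM of at least 1 in a tissue, the 3 of lowest p per genotype comparison, and up to 4 listed genes called between depots; Hox genes below that level are named where their counts divided libraries, after their values were seen. The members and lists were chosen with earlier results of these data known. A list of 12 noncoding RNAs of the Hox clusters was not analysed here, as 0 of them matched a symbol. A few genes that entered the fits and counts are not named or drawn and are not reported here.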

Additional observations from a re-analysis of the deposited data

How the results depend on the processing

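With all 12 fat libraries 14 Hox genes were called between iWAT and eWAT, and this count depended on the method. limma-voom called 3, limma on log2(FPKM + 1) called 5, or 4 with no filter on low values, and limma on log2(FPKM + 0.1) called 8. Of all genes, the main fit called 1392 of 15455 higher and 1373 lower. The others, in that order, called 367 and 243 of 15455, 808 and 245 of 14630, 590 and 183 of 19574, and 946 and 329 of 14630. Without the 3 eWAT libraries rich in epididymal transcripts the count of Hox genes called was 1, and 2 with limma-voom added, an alternative chosen after seeing the data. Leaving out 1 library at a time gave 5 to 18, with 6 without eWAT KO1, 8 without eWAT KO3, 5 without iWAT WT1, and 6 without iWAT WT3, KO2 or KO3. The calls over all genes moved too. Without eWAT KO1, 903 of 15577 genes were called higher and 531 lower. Without iWAT WT1 these were 791 and 488 of 15951, and without iWAT KO3 667 and 320 of 15984. Without eWAT KO2, which gave the 18 Hox calls, they were 1444 and 1862 of 15976. The cause was not tested, and fewer libraries also test less. The replicate block gave 8 Hox calls, where 920 of all 15455 genes were called higher and 743 lower. Same-numbered libraries did not deviate together (correlations of -0.21 to 0.11 between the depots, above 0.1 in 1 of 6 pairs). This cannot decide whether they come from 1 animal, because libraries of a group also differ in the tissue they hold. The labels do not say either. DESeq2 gave 10 without the 3 libraries. Counts for liver stayed within 1.5 times their value and genotype counts at 0 in every alternative run; limma on filtered FPKM tested no Hox gene between genotypes in liver. The FPKM scale moved the median of all genes, on the log2(FPKM + 1) scale, from -0.02 to 0.32 between genotypes in eWAT, from -0.34 to -1.15 for liver against iWAT and from -0.29 to -1.02 for liver against eWAT; the Hox genes tested stayed lower in liver. Among single genes, Hoxd9 turned from -1.37 to 0.34, 0.37 (DESeq2) and 0.30 (limma-voom) without the 3 libraries, and Hoxd10 from -0.53 to 1.32, 1.32 and 1.21. Between genotypes, leaving out 1 eWAT library gave -1.47 to 0.20 for Hoxb3 and -1.92 to 0.68 for Hoxd9, the sign turning without WT2. In liver it gave -1.01 to 0.02 for Hoxb2 (turning without KO2), -0.42 to 0.77 for Hoxa5 (without KO1) and -0.03 to 0.50 for Hoxb5 (-0.03 without WT3, -0.01 without KO1); none of these was called. Of the other depot values of single genes, 502 kept their side of the threshold, 136 lost a call and 24 gained one. At 0 to 2 counts a library, liver cannot rank its posterior Hox genes.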
